A study of Danio rerio with 5 samples.

Results

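The cells described here were taken by a marker rule from single-cell libraries of pdgfrb reporter-positive cells of zebrafish larvae 5 days after fertilization. A barcode was taken when at least 1 UMI (a unique molecular identifier, which counts a captured RNA molecule once) was found for at least 4 of the 7 genes cilp, vwde, thbs4b, meox1, fmoda, myoc and rbp7b and none was found for tnmd. Before that, barcodes had been dropped if they held fewer than 500 genes or if more than 10% of their UMIs came from 13 mitochondrial genes. In library 1, 261 of 5935 kept barcodes met the rule, or 4.40% (exact 95% interval 3.89 to 4.95%). In library 2, 352 of 7851 met it, or 4.48% (4.04 to 4.96%). The 613 cells of 13786 are called gated cells below, and every other kept barcode is called other. Intervals here cover counting error only.

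The series holds 3 bulk libraries and these 2 single-cell libraries. The bulk libraries (um148 libraries 1 to 3) are oligo-dT-primed RNA of sorted citrine-positive cells. The larvae carry the transgene Tg(pdgfrb:citrine)s1010 and the allele um148. The strain label places um148 in pdgfb, but the sample titles give no gene for it. The mutated gene could not be checked here, so the um148 values are not read as loss of pdgfb. The single-cell libraries are 10x 3′ version 3 libraries of EGFP-positive cells sorted from larvae of the transgenic line Tg(pdgfrb:egfp)ncv22, with no mutant allele named. All larvae were 5 days old, and which larvae or how many went into a library is not given, so the spread between libraries may be technical. A pdgfrb reporter marks mural cells, which sit on blood vessels, and also connective tissue cells, so the sort alone does not set a cell type.

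Fibroblasts are the connective tissue cells that build and hold the matrix of skin, fin, tendon and organ walls. Several of the 7 genes encode secreted matrix proteins. Cilp (cartilage intermediate layer protein) is found in cartilage and tendon matrix and in mammals binds TGF-beta, Thbs4b is a thrombospondin of muscle and tendon attachment sites, Fmoda (fibromodulin) is a small leucine-rich proteoglycan that binds collagen fibrils, and Vwde carries von Willebrand factor D and EGF domains. Myoc (myocilin) is a secreted glycoprotein best known from the drainage tissue of the human eye. Meox1 is a homeobox transcription factor of the somite, and Rbp7b belongs to the cellular retinol-binding proteins. Tnmd (tenomodulin), which the rule excludes, marks tenocytes, the fibroblasts of tendon.

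The libraries held 70247500 and 77896721 UMIs in 12121 and 10182 called barcodes, and 36351 genes were listed. The files share 30 barcode sequences between libraries, 11 of them among kept barcodes and 0 among gated cells. Gated cells were deeper than the rest, with a median of 9420 UMIs in library 1 and 8649 in library 2, against 5741 and 6226 in the other barcodes. The number of rule genes found went with depth, though not at every step: in library 1 the median was 4894 UMIs in barcodes with none of the 7 and without tnmd, 8110 with 4 and 22479 with 7. In library 2 it was 5259 UMIs with none, 8451 with 4, 7179 with 5 and 17237 with 7. When every barcode was thinned at random to 2000 UMIs before the rule was applied, and the 262 and 235 shallower ones were left out, 1.15% and 1.37% met it. The shares given above hold at the depth of these libraries.

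The values that chose the cells are given as a description. Levels are UMIs summed over the cells of a group, scaled to 1000000 UMIs of that group (CPM). Vwde was the highest of the 7, at 734 and 909.9 CPM in gated cells of libraries 1 and 2 against 86.5 and 91.0 CPM in other barcodes. Thbs4b stood at 283 and 325 CPM in gated cells against 41.1 and 55.6 CPM in other barcodes, and meox1 at 127 and 143 CPM against 13.8 and 13.4 CPM. Cilp was found in 72.8% and 67.6% of gated cells, at 122 and 100.3 CPM, against 6.24% and 5.13% of other barcodes, at 13.2 and 8.91 CPM. Myoc was the least frequent of the 7, in 31.4% and 27.8% of gated cells at 57.9 and 53.4 CPM, against 5.55% and 5.15% of other barcodes at 15.3 and 14.0 CPM. Fmoda differed least between the groups, at 272 and 249.7 CPM in gated cells against 100.1 and 131 CPM in other barcodes.

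Shares of cells follow depth and free RNA, so both were set beside them. With each cell thinned to 1000 UMIs, cilp was left in 15.3% and 15.3% of gated cells, against 1.50% and 1.01% of other barcodes, and vwde in 52.5% and 58.5% against 6.33% and 6.36%. Among cells with at least 4 of 6 neuron genes, which should lack these genes and had a median of 3326 and 3499 UMIs, cilp was found in 2.59% and 1.47%, vwde in 4.95% and 5.24% and myoc in 2.12% and 1.15%. The shares of these 3 genes in gated cells were above those in neuron cells in both libraries, and by the rule had to be high.

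**Figure D1:**
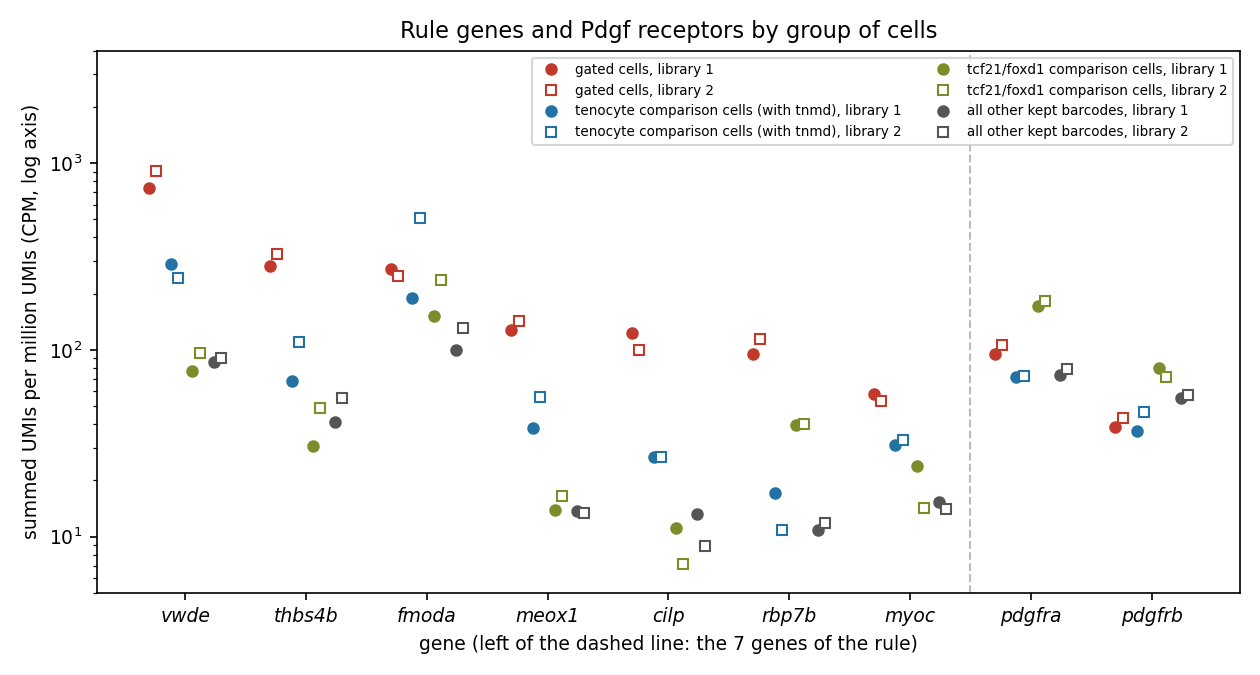
Level of the 7 rule genes and of 2 Pdgf receptor genes, in CPM on a log axis, in gated cells, tenocyte comparison cells, tcf21/foxd1 comparison cells and all other kept barcodes (filled circles library 1, open squares library 2). The gated cells stand highest for 6 of the rule genes in both libraries, the tenocyte comparison cells of library 2 are higher for fmoda, and pdgfrb is lower in gated cells than in other barcodes.

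The gene behind the reporter, pdgfrb, which encodes a receptor for Pdgfb, had lower levels in gated cells than in other barcodes. It was found in 31.0% and 33.0% of gated cells, against 27.2% and 27.8% of other barcodes, an order opposite to that of the levels. It was at 38.6 and 43.4 CPM in gated cells (exact Poisson 95% intervals 32.8 to 45.0 and 37.8 to 49.6) against 55.2 and 57.6 CPM in other barcodes, and at 15.3 and 13.2 CPM in neuron cells. In cells thinned to 1000 UMIs, pdgfrb was left in 5.68% of gated cells and 7.01% of other barcodes in library 2, and in a smaller share of gated cells than of other barcodes in library 1 as well. Its sister receptor pdgfra, which is used as a fibroblast marker, was at 95.2 and 106 CPM in gated cells against 73.6 and 79.3 CPM in other barcodes. Pdgfra was found in 61.3% and 60.2% of gated cells and in 33.1% and 35.6% of other barcodes, and after thinning in 9.96% and 13.6% against 8.44% and 9.39%.

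A total of 10 genes passed a rule of size that asked for a 4-fold higher CPM in gated cells than in other barcodes, at least 20 CPM and a UMI in at least 10% of gated cells, each in both libraries. That is 0.0275% of the genes listed. Cells are not replicates and both sides of the comparison come from the same 2 libraries, so no test was made. Of the 10, 5 were rule genes (cilp, meox1, rbp7b, vwde and thbs4b). The other 5 were fgl1, si:ch211-287a12.9, olfml2bb, si:ch211-159i8.4 and cilp2.

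The gene fgl1, whose product is a secreted fibrinogen-like protein known in mammals from liver, had the highest fold in library 2 and the next highest in library 1. It stood at 109.9 and 111 CPM in gated cells against 4.39 and 5.21 CPM in other barcodes, which is 25.1-fold and 21.4-fold. Only 18.4% and 13.9% of gated cells held it, however, against 0.670% and 0.613% of other barcodes. The 97 gated cells with fgl1 had a median of 4 UMIs in library 1 and 5 in library 2, with highest values of 55 and 67. Of the 1586 UMIs of fgl1 in kept barcodes, 1016 (64.1%) lay in gated cells. A gene that the files do not describe, si:ch211-287a12.9, followed at 57.9 and 46.6 CPM in gated cells against 1.67 and 2.85 CPM in other barcodes, in 10.7% and 10.5% of gated cells.

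The remaining genes were at lower levels. The gene olfml2bb, which encodes an olfactomedin-like protein of the same domain family as myocilin, was at 32.5 and 25.9 CPM in gated cells against 4.51 and 3.97 CPM in other barcodes. The undescribed gene si:ch211-159i8.4 was found in 31.4% and 28.7% of gated cells, at 28.9 and 31.5 CPM against 4.98 and 5.39 CPM in other barcodes. The paralogue of cilp, cilp2, was at 32.3 and 30.9 CPM in gated cells against 7.60 and 7.42 CPM in other barcodes. It was found in 17.2% and 15.9% of gated cells.

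At 2-fold, 26 genes passed in both libraries (0.0715% of genes listed). Among regulators outside the cell, smoc1, which encodes a matrix protein that modulates Bmp signals, was at 36.9 and 43.4 CPM in gated cells against 12.4 and 13.3 CPM in other barcodes. The Wnt inhibitor gene wif1 was at 38.3 and 57.3 CPM against 13.1 and 18.5 CPM. The follistatin gene fsta, whose product binds activins, was at 60.3 and 61.9 CPM in gated cells against 23.2 and 30.1 CPM in other barcodes, and the guidance ligand gene ntn1b was found in 16.5% and 18.5% of gated cells against 3.77% and 3.73% of other barcodes.

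Matrix genes on the same list included postnb (periostin), found in 75.9% and 74.7% of gated cells at 853 and 822 CPM, against 31.6% and 31.0% of other barcodes at 415 and 399.8 CPM. The asporin gene aspn, for a small leucine-rich proteoglycan, was at 91.6 and 99.4 CPM in gated cells against 42.3 and 38.2 CPM in other barcodes. The level of spon2b differed between libraries, at 50.4 and 97.6 CPM in gated cells against 22.5 and 24.9 CPM in other barcodes. The gene fap, for the membrane protease called fibroblast activation protein, was at 24.8 and 40.2 CPM in gated cells against 12.0 and 14.3 CPM in other barcodes. The others were myoc itself, angptl7, prp, scxa, col7a1l, si:ch211-43f4.1, FQ378018.1 and 1 further undescribed gene. Of these angptl7, an angiopoietin-like secreted protein, was highest at 341 and 424 CPM in gated cells against 121 and 131 CPM in other barcodes. Among gated cells, angptl7 was concentrated in 1 cluster, as given below.

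By the same size rule 15 genes (0.0413% of genes listed) were at least 4-fold lower in gated cells, and 56 (0.154%) at least 2-fold lower. The 15 were apoa2, apoa1b, CABZ01021592.1, pvalb1, pvalb2, tpma, tnni2a.4, col2a1a, col9a1a, col9a2, col9a3, col11a2, hapln1b, cnmd and otos. The main collagen gene of cartilage, col2a1a, was at 561 and 447 CPM in gated cells against 2521 and 2684 CPM in other barcodes. The level of otos was 209 and 174 CPM in gated cells against 843 and 909.7 CPM in other barcodes, and the parvalbumin gene pvalb2 at 53.8 and 65.5 CPM against 538 and 590.1 CPM. The apolipoprotein gene apoa2 was at 26.5 and 33.4 CPM in gated cells against 452 and 580.3 CPM in other barcodes, although similar shares of cells held it, 31.4% and 33.8% against 27.2% and 29.1%.

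The levels of some genes that were not part of the rule went with how many of the 7 were found. Cells with 3 rule genes, just outside the rule, numbered 274 and 394, and cells with 4, just inside, numbered 146 and 172. For fgl1 the level was 19.0 and 3.65 CPM in cells with 4 rule genes, against 16.9 and 4.44 CPM in cells with 3. It was at 139.6 and 122 CPM in cells with 5 rule genes, at 220.4 and 318 CPM with 6 and at 375 and 329.7 CPM with 7. The same form was seen for si:ch211-287a12.9, with 10.2 and 4.06 CPM at 4 rule genes and 75.0 and 52.7 CPM at 5. There was no such step for si:ch211-159i8.4, which stood at 13.4 and 20.1 CPM at 3 rule genes, 20.8 and 23.5 CPM at 4 and 32.3 and 30.7 CPM at 5. Median depth was also higher with 6 and 7 rule genes than with 4. With 5 rule genes it was 9491 and 7179 UMIs, against 8110 and 8451 with 4. The part of depth in these levels was not tested.

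**Figure D2:**
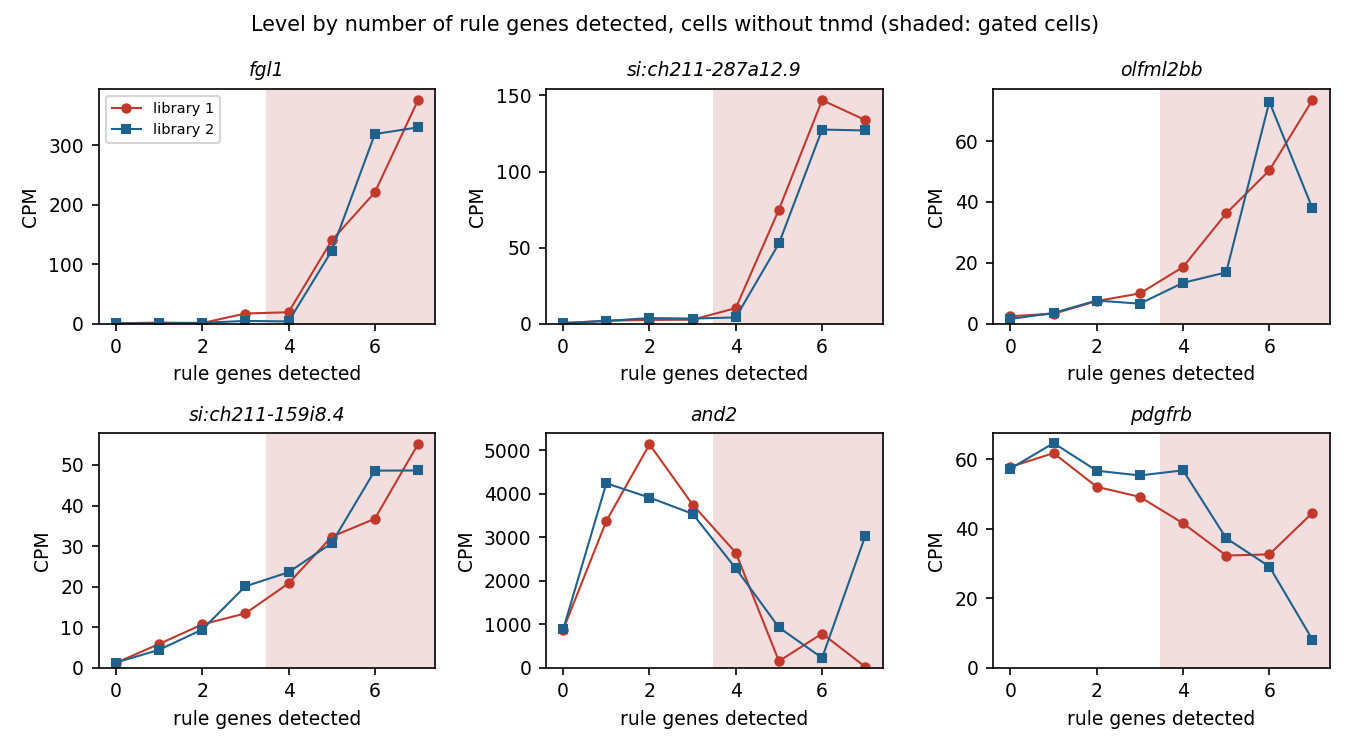
Level in CPM of 6 genes by the number of rule genes detected, from 0 to 7, in cells without tnmd (circles library 1, squares library 2; the shaded range is the gated cells). Fgl1 and si:ch211-287a12.9 are at most at 19.0 CPM up to 4 rule genes and at least at 52.7 CPM from 5 on, si:ch211-159i8.4 climbs more evenly, and and2 is at 2646 and 2285 CPM with 4 rule genes and at 154 and 928 CPM with 5, but again at 3029 CPM with 7 in library 2.

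Clustering did not place the gated cells in a cluster of their own. The 7 rule genes and tnmd were kept out of the genes used, and 35 clusters were found, of which 27 held a gated cell and 17 held at least 10. The label of cilp and myoc fibroblasts was therefore not used as a cell type name. Cluster 6 (720 barcodes) held the most, 107 gated cells or 14.9% of its barcodes (exact 95% interval 12.3 to 17.7%), and cluster 20 (257 barcodes) had the highest share, 76 gated cells or 29.6% (24.1 to 35.6%). These clusters together held 183 gated cells, 29.9% of all, and 7.09% of kept barcodes. At a coarser resolution of 0.5, with 25 clusters, the 2 clusters with most gated cells held 69.8% of them and 39.3% of kept barcodes. Of the 295 gated cells with 5 to 7 rule genes, clusters 6 and 20 held 117, or 39.7%.

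The genes that led these clusters describe them and are no result. The clusters were built on genes of these same cells, rule genes apart. Cluster 6 was led by coch, the rule gene rbp7b and tnn and cluster 20 by tlx1, angptl7 and cilp2. Smaller numbers of gated cells lay in cluster 3 (58 cells, led by abi3bpa and itih5), cluster 4 (57 cells, led by ccl25b), cluster 5 (37 cells, led by nr1h5, cxcl12a and foxd1), cluster 14 (34 cells, with depdc1a and histone genes among its leading genes) and cluster 2 (28 cells, with dlx4a and dlx1a). Others lay in clusters with genes of other tissues: 35 in cluster 9, where the keratin gene krt91 and the hemidesmosome collagen gene col17a1a were among the leading genes, 28 in cluster 19, led by the muscle regulator gene myog, and 23 in cluster 8, with the smooth muscle gene acta2. Gated cells of cluster 9 had a median of 40546 UMIs, against 8544 in gated cells of cluster 6 and 5147 in those of cluster 20. By simulated doublets, 10.3% and 10.8% of gated cells had scores in the range removed as an alternative, against 4.49% and 6.07% of other barcodes.

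**Figure D3:**
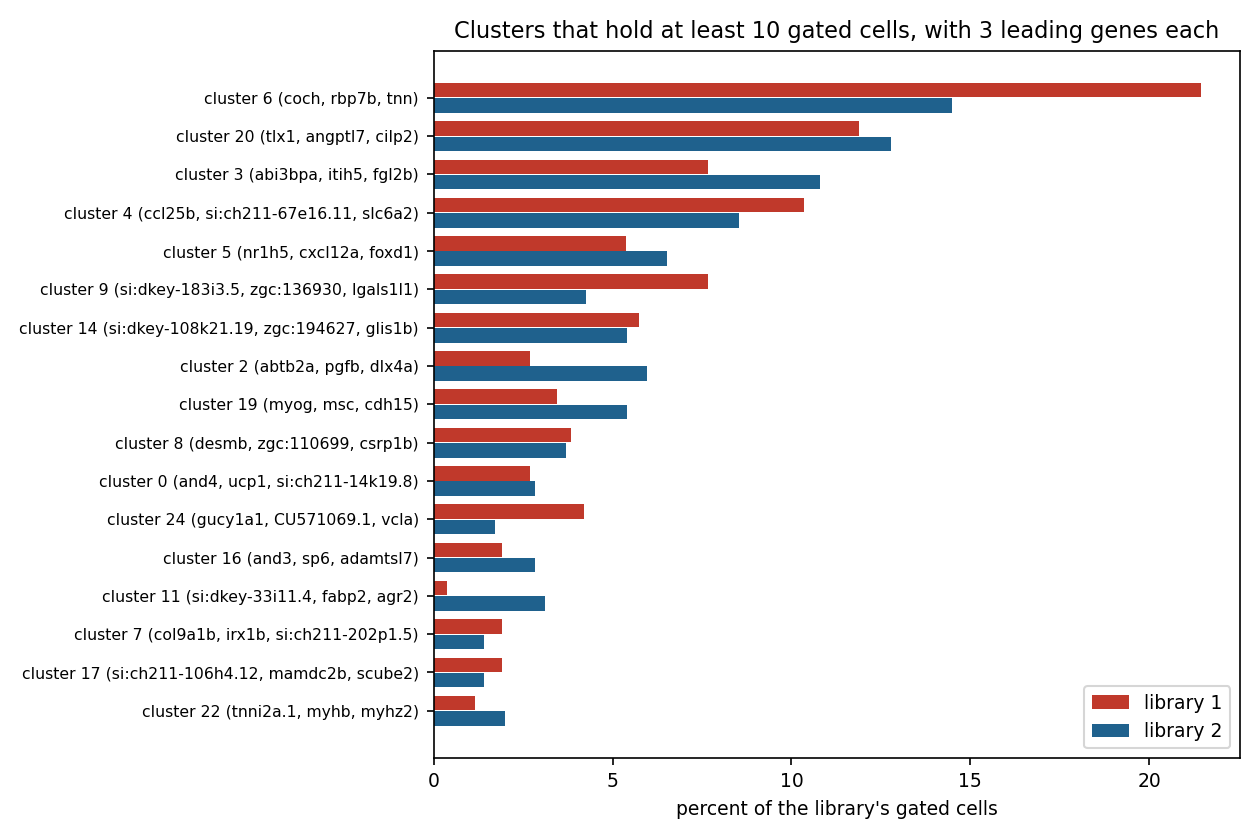
Percent of each library's gated cells in the 17 clusters that hold at least 10 of them, with 3 leading genes per cluster (red library 1, blue library 2). Clusters 6 and 20 lead in both libraries, with 21.5% and 14.5% in cluster 6 and 11.9% and 12.8% in cluster 20.

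Because fgl1 was concentrated in few cells, the gated cells were split by it, a choice made after its values were seen. There were 48 gated cells with fgl1 in library 1 and 49 in library 2, against 213 and 303 without. The cells with fgl1 were deeper, with median UMIs of 14203 and 10089 against 8368 and 8592 in those without. Of the 97, 44 lay in cluster 6 and 6 in cluster 20, and 47 also held si:ch211-287a12.9, which 18 of the 516 gated cells without fgl1 held.

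The 8 genes at least 4-fold higher in gated cells with fgl1 than in those without (0.0220% of genes listed) included fgl1 itself and en1b, an engrailed homeobox transcription factor. The level of en1b was 38.2 and 67.9 CPM with fgl1, against 5.30 and 4.63 CPM without. That of si:ch211-287a12.9 was 245 and 303 CPM with fgl1, against 2.81 and 4.63 CPM without. The fibulin gene fbln7 was found in 64.6% and 46.9% of cells with fgl1, against 14.6% and 13.9% of those without. FQ378018.1, clec3ba, cldn7a and XLOC_000322 were the others. Both en1b and FQ378018.1 were among the leading genes of cluster 6, as were the rule genes fmoda and rbp7b, given below. Barcodes of cluster 6 outside the rule were not compared, so these levels may not be particular to gated cells with fgl1.

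Of the genes past 2-fold in the same direction, 4 were chosen after their values were seen and are given as values: pax3b, pax7a, tcf15 and wnt2. The paired-box transcription factor gene pax3b was at 28.6 and 35.4 CPM in gated cells with fgl1, against 9.05 and 5.56 CPM in those without, and at 0.927 and 1.08 CPM in other barcodes. Its relative pax7a was at 26.5 and 60.8 CPM with fgl1, against 9.05 and 8.57 CPM without and 8.84 and 9.36 CPM in other barcodes. The paraxis gene tcf15, for a somite transcription factor, was at 35.0 and 36.8 CPM with fgl1, against 8.11 and 10.2 CPM without. The ligand gene wnt2 was at 35.0 and 34.0 CPM with fgl1, against 10.6 and 5.56 CPM without.

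Of the rule genes, fmoda and rbp7b were at least 2-fold higher in the cells with fgl1 in both libraries. Their levels are set in part by the rule. Fgl1 was found in 6.85% and 2.33% of cells with 4 rule genes, and in 15.9% and 17.0% of cells with 5. The part of the number of rule genes in these levels was not tested. The level of fmoda was 647 and 705 CPM with fgl1, against 162 and 175 CPM without, and rbp7b at 227 and 241 CPM against 56.5 and 94.5 CPM. The other rule genes were within 2-fold in at least 1 library. In the opposite direction 8 genes were at least 4-fold lower in the cells with fgl1 (0.0220%). The sclerostin gene sost, for a secreted Wnt antagonist, was at 13.8 and 9.90 CPM with fgl1, against 89.5 and 94.1 CPM without, sfrp2 at 46.7 and 35.4 CPM against 249 and 229 CPM, and dkk3b at 11.7 and 4.24 CPM against 66.1 and 75.3 CPM.

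The gated cells of cluster 20 (31 and 45 cells) were grouped by genes of the same kind as those compared next, so these values are a description. Against the other gated cells, 63 genes (0.173% of genes listed) were at least 4-fold higher in both libraries and 99 (0.272%) at least 4-fold lower. The level of angptl7 was 4717 and 5318 CPM in gated cells of cluster 20, in 100% of them, against 149 and 169 CPM in the gated cells outside it. In other barcodes angptl7 was at 121 and 131 CPM, so gated cells outside cluster 20 were less than 2-fold higher. That of cilp2 was 288 and 246 CPM against 21.1 and 19.7 CPM, dkk3b at 385 and 427 CPM against 39.3 and 46.5 CPM and aspn at 673 and 539 CPM against 66.2 and 76.5 CPM. The gene prelp, for a small leucine-rich proteoglycan of connective tissue, was at 144 and 169 CPM against 17.9 and 15.3 CPM. The scleraxis gene scxa, for a transcription factor of tendon progenitors, was at 189.8 and 121 CPM in these cells, against 23.4 and 21.2 CPM in the other gated cells and 10.0 and 12.5 CPM in other barcodes. Cluster 20 also held 25 barcodes with at least 4 rule genes and tnmd, 15.4% of all such barcodes. Its barcodes outside the rule were not compared, so these levels may not be particular to its gated cells.

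The most frequent rule genes, vwde and thbs4b, were higher in the gated cells of this cluster than in the other gated cells. As rule genes they are set in part by the rule. The gated cells of cluster 20 were shallower, with median UMIs of 5281 and 5138 against 9420 and 8649 in all gated cells. The part of depth in these levels was not tested. The level of vwde was 2203 and 2118 CPM in its gated cells, against 670.0 and 847 CPM in the other gated cells, and thbs4b at 943 and 1055 CPM against 254 and 287 CPM. By contrast, myoc was at 40.3 and 238 CPM, against 58.6 and 43.8 CPM, and its direction differed between libraries. The summed level of pdgfra, col1a1a, col1a1b, col1a2, col5a1, lum and dcn was 19856 and 20371 CPM in gated cells of cluster 20, against 8807 and 8586 CPM in all gated cells and 6348 and 6596 CPM in other barcodes. Epidermal genes, summed over krt4, krt5, epcam, cdh1 and tp63, were at 426 and 205 CPM there, against 5543 and 4243 CPM in all gated cells.

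The 2 genes of the label, cilp and myoc, were not always found in the same gated cells. Where found, cilp had a median of 2 and 1 UMIs and myoc of 1.5 and 2 in libraries 1 and 2. A gene with no UMI in a cell may therefore have been missed there. Of the gated cells, 28 and 40 held myoc without cilp, 136 and 180 cilp without myoc, 54 and 58 both and 43 and 74 neither. In gated cells with cilp, 28.4% and 24.4% also held myoc, against 39.4% and 35.1% of those without cilp. Since at least 4 of 7 genes were required, a cell without cilp needed more of the others, and the rule bears on this difference.

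Cells with myoc and without cilp had more RNA of 2 fin fold genes than cells with cilp and without myoc. The genes and1 and and2 encode actinodins, the proteins of the actinotrichia fibres that stiffen the larval fin fold. For and1 the level was 1498 and 1014 CPM in the cells with myoc alone, against 265 and 178 CPM in those with cilp alone and 600.4 and 628 CPM in other barcodes. For and2 it was 5153 and 2833 CPM with myoc alone, against 734 and 522 CPM with cilp alone. Outside the gated cells, in cells without tnmd, and2 was at 877 and 883 CPM with 0 rule genes. With 1 rule gene it was at 3373 and 4239 CPM, above the myoc-alone cells in library 2. The collagen galactosyltransferase gene colgalt2 was at 37.6 and 36.1 CPM against 4.21 and 5.20 CPM. In all, 10 genes were at least 4-fold higher in the cells with myoc alone (0.0275% of genes listed), myoc included, with LOC100538221, CABZ01074130.1, LOC100535130, ucp1, c1qtnf5 and 1 undescribed gene as the others. Cluster 0, which held 17 gated cells, had ucp1, c1qtnf5, LOC100538221, LOC100535130 and CABZ01074130.1 among its leading genes together with and4 and hoxa13b.

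Only 4 genes (0.011% of genes listed) were at least 4-fold higher in the cells with cilp alone, cilp included. The level of wif1 was 10.7 and 17.2 CPM in cells with myoc alone, against 51.7 and 91.8 CPM in cells with cilp alone, and prp at 10.7 and 12.0 CPM against 84.2 and 68.0 CPM. The neuron gene elavl3 was at 8.94 and 8.60 CPM with myoc alone, against 69.8 and 51.5 CPM with cilp alone and 133 and 144 CPM in other barcodes. The level of vwde, a rule gene and so set in part by the rule, was 222 and 473 CPM in cells with myoc alone, against 966 and 1209 CPM in cells with cilp alone. Median depth was 10173.5 and 8649 UMIs in cells with myoc alone, against 8685.5 and 8071.5 in cells with cilp alone. The cells with myoc alone numbered 28 and 40, so their low levels rest on few cells, and no interval is given for them.

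**Figure D4:**
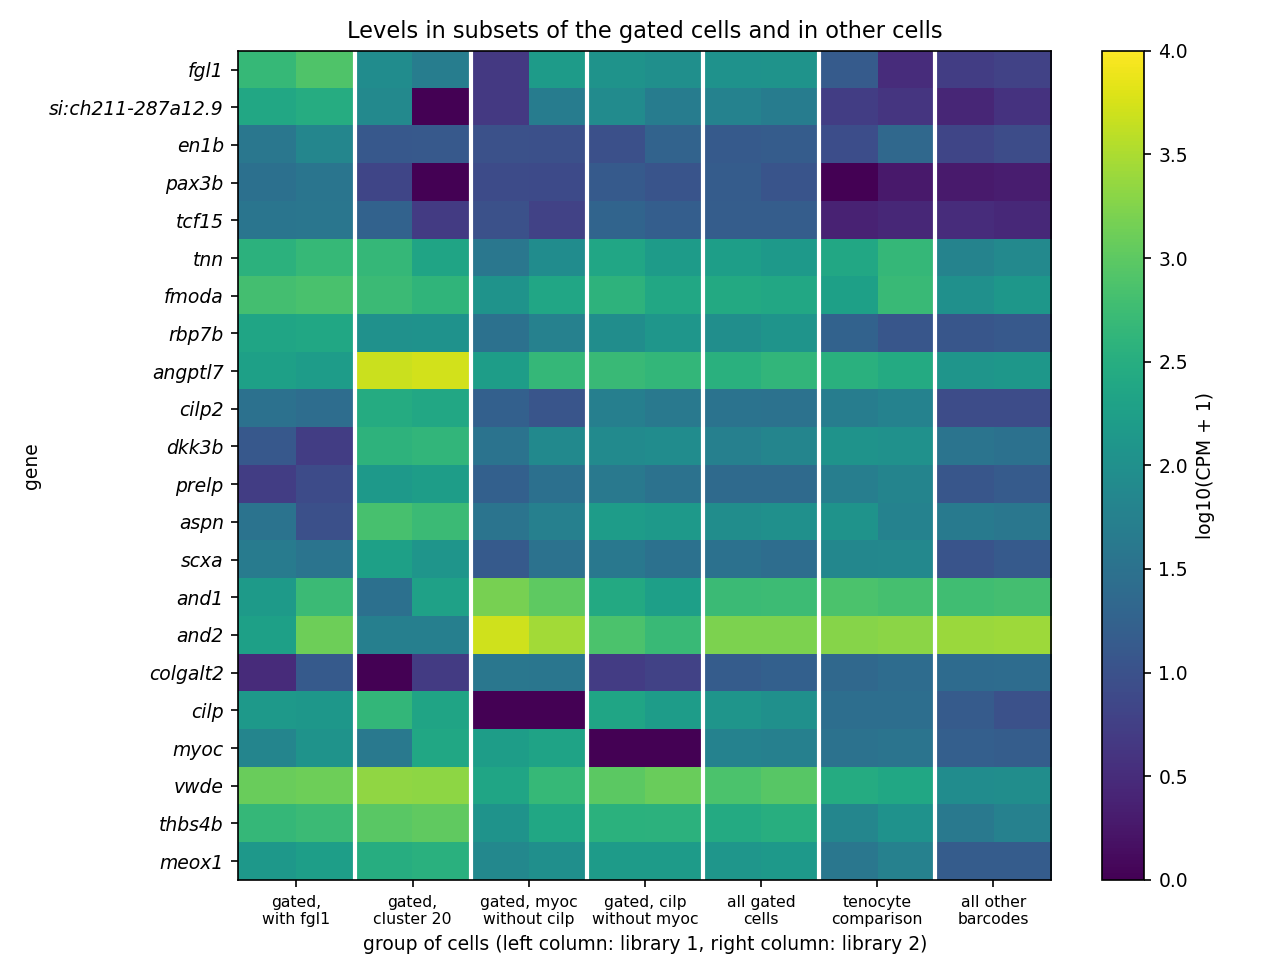
Levels of 22 genes as log10(CPM + 1) in 4 overlapping subsets of the gated cells, in all gated cells, in tenocyte comparison cells and in all other barcodes, with library 1 left and library 2 right in each pair. Fgl1 and si:ch211-287a12.9 are highest in gated cells with fgl1, angptl7 and cilp2 in gated cells of cluster 20, and and1 and and2 in gated cells with myoc and without cilp.

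Tenocytes were set beside the gated cells because tnmd alone separates the rule from the 67 and 95 barcodes that had 4 or more of the 7 genes together with tnmd. Those barcodes had fgl1 at 58.6 and 95.3 CPM and vwde at 655 and 577 CPM. Tenocyte comparison cells were taken by their own rule, with tnmd and at least 2 of scxa, mkxa, kera and prelp, and numbered 64 and 108. They also held the rule genes: vwde was at 734 and 909.9 CPM in gated cells, against 289 and 242 CPM in tenocyte comparison cells, and fmoda at 272 and 249.7 CPM against 189 and 508 CPM.

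Against tenocyte comparison cells, 9 genes were at least 4-fold higher in gated cells in both libraries (0.0248% of genes listed). The gene fgl1 was found in 18.4% and 13.9% of gated cells, against 1.56% and 2.78% of tenocyte comparison cells. The level of rbp7b, a rule gene and so set in part by the rule, was 95.2 and 115 CPM against 17.2 and 10.9 CPM. For crabp1b, a cellular retinoic acid-binding protein gene that the rule did not use, it was 32.1 and 55.4 CPM against 5.02 and 9.97 CPM. The others were si:ch211-287a12.9, tmsb and 4 fast muscle genes, of which mylpfa was at 265 and 411 CPM in gated cells, against 23.0 and 25.8 CPM in tenocyte comparison cells and 679.8 and 874 CPM in other barcodes.

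In the other direction 19 genes, among them mkxa, thbs2a and matn4, were at least 4-fold lower in gated cells than in tenocyte comparison cells (0.0523%), and tnmd was one of them by the rule. Mkxa (mohawk), a tendon transcription factor that also served to choose the tenocyte comparison cells, was at 4.10 and 6.77 CPM in gated cells, against 32.3 and 42.1 CPM in tenocyte comparison cells. Thbs2a was at 6.27 and 7.17 CPM against 35.2 and 38.1 CPM, and matn4, a matrilin, at 207 and 185 CPM against 1237 and 1601 CPM. Genes of cartilage stood on the same list, with col2a1a at 561 and 447 CPM in gated cells, against 3671 and 3247 CPM in tenocyte comparison cells. Ucmaa, scinla, cd81b, otos, col9a1a, col9a2, col9a3 and col11a2 were others.

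The tcf21/foxd1 comparison cells (324 and 419 barcodes outside the gated cells, with pdgfra and either transcription factor gene) were compared in the same way. The level of cilp, a rule gene and so set in part by the rule, was 122 and 100.3 CPM in gated cells, against 11.2 and 7.14 CPM in them. For angptl7 it was 341 and 424 CPM in gated cells, against 61.0 and 58.4 CPM in the comparison cells. No UMI of fgl1 was found in them in library 1, which allows up to 0.896 CPM by the exact Poisson interval, and its level was 2.44 CPM in library 2. The chemokine gene cxcl12a was at 413 and 303 CPM in gated cells, against 1714 and 1818 CPM in them. By the 4-fold rule 10 genes (0.0275%) were higher and 19 (0.0523%) lower in gated cells, and foxd1, tcf21 and tnmd, which the rules used, were among the 19.

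Relatives of the rule genes, either paralogues or zebrafish duplicates, did not all differ as the rule genes did. The level of cilp2 differed in the direction of cilp, as given above. The relatives of meox1, meox2a and meox2b, were at 15.4 and 9.76 CPM and at 6.27 and 7.37 CPM in gated cells, against 3.93 and 4.20 CPM and 3.69 and 3.15 CPM in other barcodes. For thbs4a the level was 6.51 and 8.16 CPM in gated cells, against 6.24 and 6.55 CPM in other barcodes and 45.9 and 46.2 CPM in tenocyte comparison cells. For fmodb it was 68.0 and 53.2 CPM in gated cells, against 46.4 and 44.2 CPM in other barcodes. The gene rbp7a had 0 UMIs in gated cells of both libraries, and 7 and 1 in other barcodes.

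Lists of related genes were counted over members measured at 20 CPM or more, in gated cells or in other barcodes, in each library. Of 33 measured genes of the collagen list, 1 was at least 2-fold higher in gated cells in both libraries (col7a1l). A further 6 were lower, all of them genes of cartilage or bone such as col2a1a, col11a2, col9a1a and col10a1a. The list was taken by name, and the 33 include col4a3bpb, which is not a collagen gene. Over all 4064 genes so measured, 29 were higher and 137 lower. None of the main fibril collagen genes col1a1a, col1a2 and col5a1 differed by 2-fold, and their directions differed. The level of col1a1a was 2889 and 2839.8 CPM in gated cells, against 3054 and 3218 CPM in other barcodes, col1a2 was at 2202 and 2085 CPM in gated cells, against 1205 and 1233 CPM in other barcodes, and col5a1 at 1537 and 1552 CPM against 863 and 896 CPM. The median log2 difference of the 33 was 0.43 and 0.41, against -0.01 and -0.01 over all measured genes.

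Of 11 small leucine-rich proteoglycan genes, aspn was higher and epyc (epiphycan), a cartilage gene, was lower at 2-fold, with 21.9 and 24.5 CPM in gated cells against 226 and 257 CPM in other barcodes. Of 38 other matrix genes, 7 were higher, 4 of these being rule genes, and 8 were lower, among them matn1 and fbln1. The 3 that the rule did not use were cilp2, postnb and spon2b. Of 8 Wnt ligand and inhibitor genes 1 was higher (wif1) and 0 lower, and of 18 Tgfb and Bmp genes 1 was higher (fsta) and 1 lower (sostdc1a). Of 11 retinoid genes rbp7b alone was higher; crabp1b was at 32.1 and 55.4 CPM in gated cells, against 20.5 and 23.6 CPM in other barcodes. Of 22 mesenchyme transcription factor genes, meox1 and scxa were higher.

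None of 16 matrix protease and inhibitor genes, 7 Igf genes, 8 chemokine and Pdgf genes, 8 cell division genes and 13 immediate-early genes differed by 2-fold in both libraries. The highest of the last 4 lists, in the same order, were igfbp1a at 249.7 and 428 CPM in gated cells against 287 and 318 CPM in other barcodes, cxcl12a at 413 and 303 CPM against 477 and 520.1 CPM, pcna at 215 and 225 CPM against 161 and 169 CPM, and fosab at 1103 and 1368 CPM against 1217 and 1327 CPM. Median log2 differences of the cell division genes were 0.31 and 0.42.

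Genes of other cell types were found in the gated cells. At least 3 of 6 skeletal muscle markers were found in 20.7% and 17.0% of gated cells, against 9.80% and 10.0% of other barcodes, while their summed level was 1219 and 1402 CPM against 2901 and 3749 CPM. At least 3 of 5 epidermal markers were found in 19.9% and 15.1% of gated cells, against 12.2% and 11.6% of other barcodes. Their summed level was 5543 and 4243 CPM in gated cells, against 3965 and 3889 CPM in other barcodes. At least 3 of 7 pericyte markers were found in 23.4% and 21.3% against 12.4% and 13.6%, at a summed 465 and 482 CPM against 457 and 474 CPM. Chondrocyte markers summed to 769 and 647 CPM in gated cells, against 4339 and 4745 CPM in other barcodes, and neuron markers to 107 and 80.4 CPM against 366 and 397 CPM. The 7 osteoblast markers summed to 12.8 and 89.8 CPM in gated cells, against 469 and 490 CPM in other barcodes. Of these markers, bglap was at 0 in gated cells of both libraries. The part of depth, doublets and free RNA in these shares was not tested.

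The bulk libraries give a readout that the rule did not use. The authors' deposited table compares um148 with wild-type sorted cells; the wild-type columns are not samples of the series and were not used. In bulk RNA, fewer cells of a type, less RNA per cell and a change in sorted cells outside the rule cannot be told apart. Gated cells held 3046 and 4570 UMIs of vwde in single-cell libraries 1 and 2, and other barcodes held 4198 and 6236. Of 16853 genes with an adjusted p in the authors' deposited table, 864 (5.13%) were lower and 1041 (6.18%) higher in um148 at an adjusted p under 0.05, 11.3% in all. The median log2 fold change of all of them was 0.02.

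Of the 10 genes 4-fold higher in gated cells, 9 were tested in the authors' deposited table, 1 was lower and 0 were higher, which is near the share over all genes. The gene with an adjusted p under 0.05 was vwde, at 383, 452 and 361 normalized counts in um148 libraries 1 to 3, with a log2 fold change of -1.39 (standard error 0.30) and an adjusted p of 2.11e-04 in the authors' deposited table. In the authors' deposited table cilp2 was at 380.3, 266 and 383 normalized counts in um148, with a log2 fold change of -1.10 and an adjusted p of 0.054. Thbs4b had a log2 fold change of -0.81 (adjusted p 0.097) and cilp of -0.54 (adjusted p 0.41) in the authors' deposited table, and fgl1 was not among the genes tested. All 9 log2 fold changes were below 0, with a median of -0.54, against 8235 of 16853 below 0 over all genes. Vwde is a rule gene. With the rule genes left out, 4 were tested, 0 were called, and all 4 were below 0, at a median of -0.53. The 9 genes were chosen in the same cells and are not independent of each other.

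Of the 26 genes at 2-fold, 25 were tested in the authors' deposited table, 2 were lower (vwde and angptl7), 0 were higher (8% called, against 11.3% of all genes) and 22 had a log2 fold change below 0. The gene angptl7 was at 1829, 1493 and 1828 normalized counts in um148 libraries, with a log2 fold change of -1.15 (standard error 0.40) and an adjusted p of 0.037 in the authors' deposited table. The median of the 25 was -0.46. With the rule genes left out, 19 were tested, 1 was lower and 0 were higher (5.26% called). Of these 19, 16 were below 0, and the median was -0.37. At 594, 661 and 1597 normalized counts, myoc had a log2 fold change of -0.78 with an adjusted p of 0.23 in the authors' deposited table, and um148 library 3 was the highest.

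**Figure D5:**
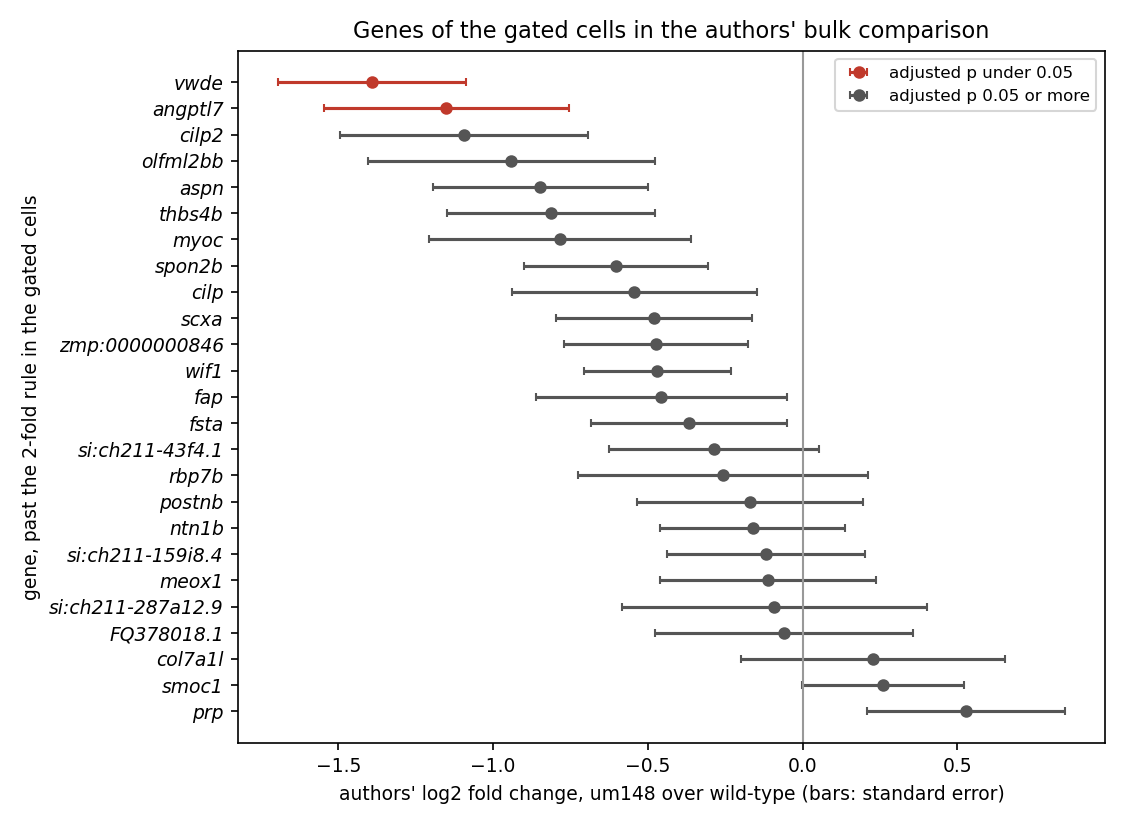
Log2 fold change of um148 over wild-type in the authors' deposited table for the 25 tested genes that were 2-fold higher in gated cells, with bars for the standard error derived from the authors' test statistic. Vwde and angptl7 (red) have an adjusted p under 0.05, and 22 of the 25 points lie below 0.

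The same readout was taken for the subsets. Of 79 genes at least 4-fold higher in gated cells of cluster 20 than in other barcodes (0.217% of genes listed), all 79 were tested in the authors' deposited table, 10 were lower and 1 was higher (13.9% called, against 11.3% of all genes), and the median log2 fold change was -0.29. Over all genes 5.13% were lower and 6.18% higher. Of the 79, 59 had a log2 fold change below 0. With the rule genes left out, 74 were tested, 9 were lower and 1 was higher (13.5% called), and 54 were below 0. The 79 genes were chosen in the same cells and are not independent of each other. Among the 10 lower genes of the full list were vwde, angptl7, dkk3b, mfap5, prelp, slc51a, tmeff2a, ms4a17a.7 and CU929237.1. Dkk3b, a secreted protein of the Dickkopf family, was at 319, 425 and 385 normalized counts in um148, with a log2 fold change of -1.20 (standard error 0.30, adjusted p 1.61e-03) in the authors' deposited table, and mfap5, a microfibril protein gene, had -1.32 (standard error 0.34, adjusted p 2.53e-03). The retinoic acid receptor gene rargb was the 1 higher, with a log2 fold change of 2.60 (adjusted p 4.31e-07) in the authors' deposited table.

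Of 23 genes at least 4-fold higher in gated cells with fgl1 (0.0633% of genes listed), 18 were tested in the authors' deposited table, 1 was lower (vwde) and 0 were higher (5.56% called, against 11.3% of all genes), with a median log2 fold change of -0.10. Of these, en1b was at 142, 77.9 and 125 normalized counts in um148, with a log2 fold change of 0.03 (adjusted p 0.98) in the authors' deposited table. The 2 lists share genes, and the difference between their shares was not tested.

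Other gene lists are set beside the 5.13% lower and 6.18% higher over all genes. Of 13 cell division genes tested in the authors' deposited table, 5 were lower and 0 higher (median log2 fold change -0.94). Of 15 immediate-early genes in the same authors' deposited table, 4 were lower and 0 higher, at a median of -1.17. That median was -0.66, -3.30 and -1.06 for um148 libraries 1 to 3 taken singly against the wild-type level implied by the authors' deposited table, and library 2 stood apart. Of 52 other matrix genes in the authors' deposited table, 4 were lower and 4 higher (15.4% called, against 11.3% of all genes). Of 55 genes of the collagen list, col4a3bpa and col4a3bpb included, 2 were lower and 2 higher (7.27%). Of 15 small leucine-rich proteoglycan genes 2 were lower and 0 higher (13.3%). Their part in the values of the members was not tested.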

How the data were processed

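The single-cell libraries were analysed from the UMI counts per gene and barcode that the authors deposited, already reduced to called barcodes. Per the submitters' processing notes, CASAVA 1.8.2, STAR, RSEM, DESeq2, Cell Ranger 3.1.0 and build GRCz11 were used; which step used which is not given in the sources used here. No genome of that build was used, and no sequence or position is given. For the bulk libraries, the authors deposited 1 table with a normalized signal (counts divided by a size factor), a log2 fold change, the same as a linear ratio, a test statistic (a score), p-values, raw and adjusted, and their −log10. The um148 columns total 16997792, 19409286 and 21231786. The 3 columns of other libraries were not used. The fold change was read as um148 over wild-type because the implied wild-type total is then near that of um148. Standard errors were derived from the statistic, read as a squared Wald ratio; that reading was not tested.

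Counts were summed per group of cells and library and scaled to CPM; sums under 3 UMIs were set to 3 in folds. Intervals are exact (Clopper-Pearson for shares, Poisson for counts) at 95%. No p was made from cells. Clusters came from scanpy 1.11.5 and leidenalg 0.10.2 (1994 variable genes, 50 components, 20 neighbours, resolution 1). Doublet scores used 2 simulated doublets per barcode. The size rule was tested on simulated counts. The members and gene lists were chosen with earlier results of these data known. Genes are named when they are rule genes or their relatives, among the first past the size rule in a comparison, past it within a list or the highest of a list, or called in the authors' table; the neuron cells, the split by fgl1 and the cluster subset, with the genes named in them, were chosen after values were seen. Gene symbols are those of the files. A gene that the naming rule picks is not reported here.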

Additional observations from a re-analysis of the deposited data

Results flagged for a closer look

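In library 1, 28 of the 3976 barcodes removed for more than 10% mitochondrial UMIs met the marker rule (0.704%, exact 95% interval 0.468 to 1.02%), which is above the 3 that a count of 0 allows. In library 2, 3 of 407 such barcodes met it (0.737%). None of the 2210 and 1924 barcodes removed for too few genes met it.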

How the results depend on the processing

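The share of 4.44 ± 0.06% (SD, n = 2 libraries) went with the settings of the rule. It was 9.26% with at least 3 rule genes, 2.12% with at least 5, 5.61% with tnmd ignored, 5.07% and 3.63% with mitochondrial limits of 5% and 20% (SD 0.975 between libraries at 20%), 4.04% and 4.91% with at least 200 and 1000 genes, 4.20% without the barcodes of highest doublet score and 1.26% after thinning to 2000 UMIs; leaving out either library gave 4.40 to 4.48%. The 10 genes at 4-fold became 26 at 2-fold, 6 at 8-fold, 5 at 100 CPM, 19 with no minimum (genes over 3 UMIs in gated cells of both libraries) and 6 with at least 3 rule genes. Their number stayed within 1.5 times under the other 10 alternatives, 10 to 11 with 1 library left out. With tenocyte comparison cells as the reference 9 genes passed, but only 3 of them were among the 10. Without the highest doublet scores 11 genes passed, 9 of them among the 10, and the fold of fgl1 was 29.6, against 23.2 as described; over all alternatives that fold ran from 15.3 with at least 3 rule genes to 42.6 with at least 5, and it was 34.9 as a mean over cells.

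The 1 gene called in the authors' deposited table became 3 at an adjusted p under 0.1 and 2 for the 2-fold list, and it was 1 with either single-cell library left out. The median of -0.54 was -0.26 for the 8-fold list, -0.40 without genes also enriched in tenocyte comparison cells and -0.68 for genes at or above the table's median level; it was -0.54 to -0.40 with 1 single-cell library left out and -0.62 to -0.47 with 1 um148 library left out, and no alternative turned its sign. Added after the data were seen, clustering at resolution 0.5 put 69.8% of gated cells in 2 clusters, which held 39.3% of kept barcodes. Resolution 2 gave 30.7%. At resolution 1, gated cells with at least 5 rule genes gave 39.7%, and a single library 27.3 to 33.3%. No paired analysis was possible because the numbered um148 and single-cell libraries are different assays that no test compares. Depth limits the share of cells found with low genes such as myoc.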
